A study of Mus musculus with 32 samples.

Results

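The S100 genes encode small calcium-binding proteins that have no enzyme activity and act by binding other proteins. Most of them pair up as dimers, open a binding face when calcium is loaded onto their EF-hand loops, and then hold annexins, cytoskeletal proteins or signalling proteins. S100a10 is the exception in the family, since it has lost calcium binding and is held in its active form as the partner of annexin A2. S100 transcripts are best known from epithelia, muscle and myeloid cells.

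The 9 genes described here are S100a1, S100a4, S100a6, S100a8, S100a9, S100a10, S100a11, S100a13 and S100a16, out of 17 S100 genes and 55385 genes in the RNA tables. They were chosen from earlier results on these same libraries, so their levels, differences and calls are given as a description. No conclusion is drawn from the calls. All 9 lie on mouse chromosome 3. RNA was measured by total RNA-seq in 16 libraries that fall into 8 groups of 2 libraries each.

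All embryos were wild type and came from in vitro fertilisation of B6D2F1/J oocytes with B6D2F1/J sperm, from mice of 6 to 8 weeks. A-485, an inhibitor of the histone acetyltransferases CBP and p300, was present at 10 μM from 4 to 20 hours after insemination, and embryos were taken as zygotes, early 2-cell or late 2-cell embryos. Late 2-cell A-485 embryos had therefore been washed free of the drug before collection. TSA, an inhibitor of histone deacetylases, was present at 50 nM from 8 to 28 hours in a separate experiment that was read at the late 2-cell stage only. Each treatment had its own DMSO control, so the late 2-cell stage has 2 DMSO groups, and A-485 and TSA differ in time window as well as in target. The drugs were added to the culture medium, and how many embryos were pooled for an RNA library is not given in the sources used here.

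The libraries held between 13206163 and 32585987 expected counts, and the 2 late 2-cell A-485 libraries were the shallowest. In those 2 libraries 5.43% and 5.35% of counts came from mitochondrially encoded protein genes, against 2.45% and 2.35% in their controls. Oocyte and embryo markers were expressed in every group, with 9 or 10 of 10 genes above 0.5 FPKM (fragments per kilobase of effective transcript length, scaled to the depth of the library) and a summed level between 728.2 and 3481 FPKM.

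The genes sit in 2 runs. The first spans chr3:90511034-90695721 (GRCm38), is 184.7 kb long and holds 12 S100 genes, among them S100a1, S100a13, S100a16, S100a4, S100a6, S100a8 and S100a9 in that order. The second spans chr3:93520488-93564643, is 44.2 kb long and holds S100a11 and S100a10. Upstream stretches of 4 promoters are shown because they show how the promoters of the strongly changed genes differ from each other and from that of a silent family member. They were taken from RefSeq promoter windows (GRCm38.p6), which matched 8 of the 9 genes, read along the plus strand and cut before the first annotated exon. Capitals mark CpG dinucleotides.
S100a6, chr3:90612644-90612881: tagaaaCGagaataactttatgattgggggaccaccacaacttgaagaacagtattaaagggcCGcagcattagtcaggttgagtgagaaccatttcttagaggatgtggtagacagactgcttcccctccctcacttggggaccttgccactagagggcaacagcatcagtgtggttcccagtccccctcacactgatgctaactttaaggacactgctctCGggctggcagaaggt
S100a11, chr3:93520246-93520487: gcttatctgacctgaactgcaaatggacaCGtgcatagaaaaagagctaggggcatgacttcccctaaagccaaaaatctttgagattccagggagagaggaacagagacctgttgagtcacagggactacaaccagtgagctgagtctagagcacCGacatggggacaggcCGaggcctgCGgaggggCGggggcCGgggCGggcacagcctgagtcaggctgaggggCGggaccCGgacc
S100a13 and S100a1, the bases between their divergent starts, chr3:90514393-90514434: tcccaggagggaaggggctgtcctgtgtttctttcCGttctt
S100a8, chr3:90668821-90668977: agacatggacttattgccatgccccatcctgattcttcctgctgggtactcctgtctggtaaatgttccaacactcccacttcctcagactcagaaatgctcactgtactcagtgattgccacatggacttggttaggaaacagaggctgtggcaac

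S100a10 had no window in the promoter table, so promoter letters are given for the other 8 genes. In the full window of 250 bases before the RefSeq start, S100a13 had 13 CpG, S100a11 had 11 and S100a1 had 8, whereas the median over 32841 mouse promoters was 6. The windows of S100a13 and S100a1 overlap over the 104 bases between their RefSeq starts, so CpG there were counted for both genes. The stretch printed above covers only the 42 bases between the annotated genes. S100a6 had 3 CpG and the silent genes S100a8 and S100a9 had 2 each, so the gene of the set with the highest level under TSA had a CpG-poor promoter. On both strands of those windows 5 motifs were searched. The S100a11 window held the GC box GGGCGG, found in 32.8% of promoters, the AP-1 site TGAGTCA, found in 4.46%, and the E box CACGTG, found in 6.02%. The S100a6 window held the CCAAT box, found in 33.9% of promoters. The windows of S100a4 and S100a8 held the TATA box TATAAA, found in 12.4%, that of S100a9 and 1 of the 2 starts of S100a16 held the GC box, and those of S100a1 and S100a13 held none of the 5. The printed S100a8 stretch is shorter than its window and holds neither its TATA box nor its 2 CpG. None of the 5 contains another. A match of letters is a description of the window and no evidence of binding.

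In control embryos the 9 chosen S100 genes were nearly silent at every stage, unlike S100a14, which is described below. The summed level of the 9 genes was 1.89 and 2.66 FPKM in zygotes, 5.19 and 5.08 FPKM in early 2-cell embryos, 2.56 and 5.09 FPKM in the late 2-cell controls of the A-485 experiment, and 1.98 and 2.62 FPKM in those of the TSA experiment. The early 2-cell controls had the highest mean sum, and the higher late 2-cell control of the A-485 experiment overlapped them. Under TSA the sum was 28.4 and 30.3 FPKM, above every other library, and under A-485 at the late 2-cell stage it was 4.97 and 17.2 FPKM, with only the second library above all controls.

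**Figure D1:**
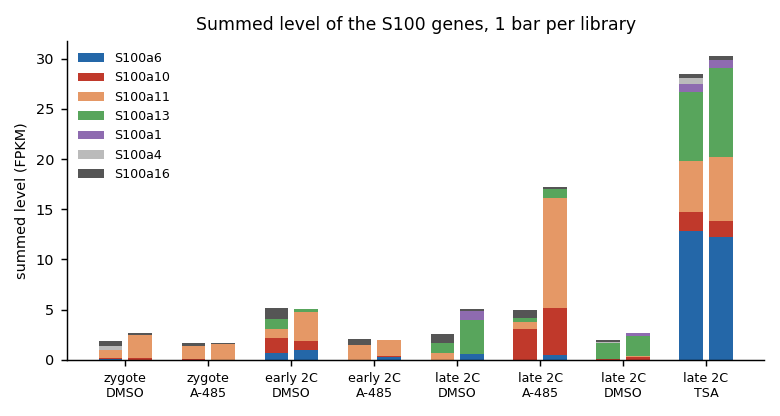
Stacked level (FPKM) of the S100 genes, 1 bar for each of the 16 libraries, coloured by gene. The 2 TSA bars reach 28.4 and 30.3 FPKM and are made up mainly of S100a6, S100a13 and S100a11, and the 2 late 2-cell A-485 bars differ from each other (4.97 and 17.2 FPKM), mainly in S100a11.

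A gene was called when its fold was at least 2, its adjusted p in edgeR's quasi-likelihood test was under 0.05 and its mean level was at least 1 FPKM in either group. Only genes with at least 10 counts over the 4 libraries of a comparison were fitted, so the genes that passed are not all members. In zygotes 2 of the 9 genes passed and neither was called, where 0.00548% of all 18258 fitted genes were called higher and 0.0657% lower. At the early 2-cell stage 5 passed and 0 were called, where 0.402% of all genes were called higher and 7.9% lower. At the late 2-cell stage after A-485, 4 passed and 1 was called higher, S100a10, where 10.5% of all genes were called higher and 16.8% lower. Under TSA 5 passed and 4 were called higher, S100a6, S100a10, S100a11 and S100a13, where 13.8% of all genes were called higher and 13.9% lower. Since these contrasts were used to choose the genes, nothing is read from the counts. With libraries scaled to mitochondrially encoded genes, 14.6% of all calls after A-485 at the late 2-cell stage were higher instead of 38.6%, and in zygotes 50.0% instead of 7.69%. With scaling to total counts, 63.3% of the TSA calls were higher instead of 49.9%.

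S100a6, or calcyclin, binds annexins and the ubiquitin-ligase adaptor Cacybp in cycling cells. The late 2-cell controls of the TSA experiment held 0 and 0 counts of S100a6 (ENSMUSG00000001025.8, chr3:90612882-90624181, plus strand), and the TSA libraries held 96 and 92. In FPKM the TSA level was 12.9 and 12.2, a mean of 12.5 ± 0.488 (SD, n = 2). Set against a limit of 3 counts over the control group, this is at least 65.6-fold higher. No other group came near it, and the next highest, the early 2-cell controls with 0.69 and 1.01 FPKM, rested on 4 and 6 counts.

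At the early 2-cell stage S100a6 was at 0 and 0.28 FPKM after A-485, below both controls, on 0 and 4 counts. The fitted log2 difference of -1.38 ± 2.05 (SE) was smaller than its own error. The late 2-cell libraries of the A-485 experiment had 0 and 0.59 FPKM in controls and 0 and 0.51 FPKM after A-485, which overlap. In zygotes 1 read was found in a single control library.

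S100a10 forms a heterotetramer with annexin A2 at the membrane and through it holds the giant scaffold Ahnak. Its transcript (ENSMUSG00000041959.14, chr3:93555080-93564643, plus strand) was the S100 transcript whose groups separated in opposite directions after A-485 at the early and late 2-cell stage. At the early stage the controls had 1.52 and 0.84 FPKM (16 and 9 counts) and the A-485 libraries 0 and 0.08 FPKM (0 and 1 count). The ratio of counts scaled to depth was 0.038, with a 95% interval of 0.0009 to 0.232 that covers counting error only, and the gene was not called.

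At the late 2-cell stage the controls of the A-485 experiment held no S100a10 count, and the A-485 libraries held 19 and 33 counts, or 3.08 and 4.67 FPKM, a mean of 3.88 ± 1.12 (SD, n = 2). This is at least 22.8-fold higher against 3 counts over the control group. In the TSA experiment S100a10 was at 0.07 and 0.23 FPKM in controls and at 1.82 and 1.61 FPKM under TSA, a log2 difference of 3.11 ± 1.07 (SE). The TSA level rests on 18 and 17 counts, and its log2 difference was 2.51 without the first control library and 4.08 without the second. This call was lost with DESeq2, with all 16 libraries in 1 fit and with a replicate block. Zygotes had between 0 and 0.14 FPKM in all 4 libraries. The order of the groups was late A-485, then TSA, then early 2-cell controls, and the last 2 nearly touch, with 1.61 FPKM in the lower TSA library and 1.52 FPKM in the higher control.

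S100a11 binds annexins and takes part in plasma membrane repair. S100a11 (ENSMUSG00000027907.4, chr3:93520488-93526287, plus strand) was the gene of the set with the highest level in zygotes. Zygote controls had 0.73 and 2.28 FPKM and zygotes under A-485 1.21 and 1.60 FPKM, so the control values lie on either side of the treated ones. The same held at the early 2-cell stage, with 0.89 and 2.88 FPKM in controls and 1.43 and 1.57 FPKM after A-485.

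In the late 2-cell controls S100a11 was at 0.70 and 0 FPKM in the A-485 experiment and at 0 and 0.11 FPKM in the TSA experiment. TSA libraries had 5.14 and 6.43 FPKM on 34 and 46 counts, against 0 and 1 count in their controls. The depth-scaled ratio was 83.8, with a 95% interval for counting error of 14.6 to 3349. After A-485 the late 2-cell libraries disagreed, with 0.65 FPKM in the first and 10.9 FPKM in the second (2.53 and 49 counts), so that the mean of 5.80 ± 7.28 (SD, n = 2) overlaps the controls and describes neither library. S100a11 was not called there, with a log2 difference of 3.68 ± 1.55 (SE), which lay between 2.79 and 7.77 when a library was left out (without the second treated library it could not be fitted), and it was called when the first treated library or the first control was left out. Reads were divided among similar sequences for S100a11, with a posterior SD of at most 1.31 counts in any library.

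S100a13 helps to export Fgf1 and Il1a, proteins that leave cells without a signal peptide. S100a13 (ENSMUSG00000042312.9, chr3:90514435-90524581, plus strand) was listed at 0 in all 4 zygote libraries and first appeared at the early 2-cell stage, where controls had 0.99 and 0.35 FPKM (11 and 4 counts). Both early A-485 libraries held no count, which is at least 5.26-fold lower than controls, and the gene was not called.

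By the late 2-cell stage the controls of the A-485 experiment had 1.01 and 3.33 FPKM of S100a13 and the A-485 libraries 0.46 and 0.93 FPKM, a log2 difference of -1.82 ± 1.18 (SE) that lay between -2.42 and -0.76 when a library was left out. The lower control and the higher treated library nearly meet. In the TSA experiment controls had 1.55 and 2.00 FPKM and TSA libraries 6.90 and 8.90 FPKM, a log2 difference of 1.8 ± 0.41 (SE). S100a13 was the S100 gene of the set with the highest control level at the late 2-cell stage, and unlike S100a6 and S100a11 it was higher under TSA from a level that was already measurable.

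S100a1, a regulator of calcium release in heart muscle, starts back to back with S100a13 with 42 bases between the annotated genes. S100a1 (ENSMUSG00000044080.9, chr3:90511034-90514392, minus strand) had no count in zygotes, early 2-cell embryos or late A-485 embryos, and had 0 and 0.97 FPKM in the late controls of the A-485 experiment. Controls of the TSA experiment had 0 and 0.28 FPKM and the TSA libraries 0.72 and 0.77 FPKM, on 7 and 8 counts. The depth-scaled ratio under TSA was 5.24 (95% interval for counting error 1.48 to 28.2), and S100a1 was not called.

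The remaining members were at or near the limit of detection. S100a16, a widely expressed member, was between 0 and 1.10 FPKM in all 16 libraries and its groups overlapped after A-485 at every stage, with 0.40 and 0.39 FPKM under TSA against 0.25 and 0 FPKM. S100a4, which binds nonmuscle myosin, had 5 counts in all, in 3 libraries, and overlaps Gm42674 on the same strand, so its reads cannot be assigned to it with certainty. S100a8 and S100a9, the subunits of neutrophil calprotectin, had no count in any of the 16 libraries, which allows up to 0.227 CPM (counts scaled to the library's depth) in the shallowest library and 0.0921 CPM in the deepest.

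**Figure D2:**
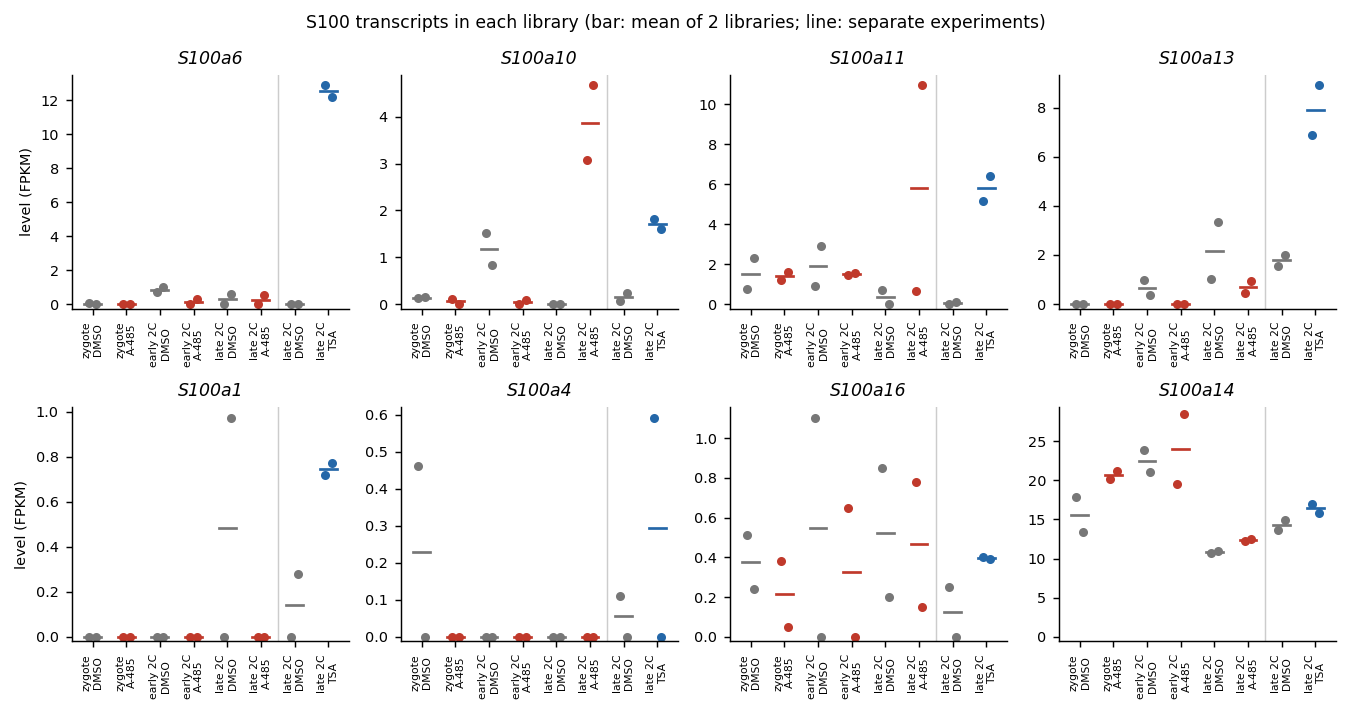
Level (FPKM) of 7 S100 genes and of S100a14 in each library, with a bar at the mean of 2 libraries and a vertical line between the A-485 and TSA experiments; axes differ between genes. S100a6 is high in the TSA libraries alone (12.9 and 12.2 FPKM), S100a10 is highest after A-485 at the late 2-cell stage, and S100a14 lies between 10.8 and 28.5 FPKM in every library.

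Of the other S100 genes in the tables, S100a14 was the single gene with a mean of at least 1 FPKM in any group. S100a14, known from epithelia, was the most abundant S100 transcript in all 16 libraries, lying between 10.8 and 28.5 FPKM. It was not called in any comparison, and its log2 differences were -0.06 in zygotes, 0.34 at the early 2-cell stage, 0.31 after A-485 at the late 2-cell stage and -0.20 under TSA, each with an SE of at least 0.21. S100a14 lies inside the first run, between S100a13 and S100a16, next to a gene with a higher level under TSA. Its means were 22.5 FPKM in early 2-cell controls and 10.8 FPKM in the late 2-cell controls of the A-485 experiment. S100a2, added to the list after its values were seen, had 2 counts in TSA controls and 16 under TSA, at 0.41 FPKM or less. The 5 other annotated genes inside the 2 runs had too few counts to be fitted in any comparison.

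**Figure D3:**
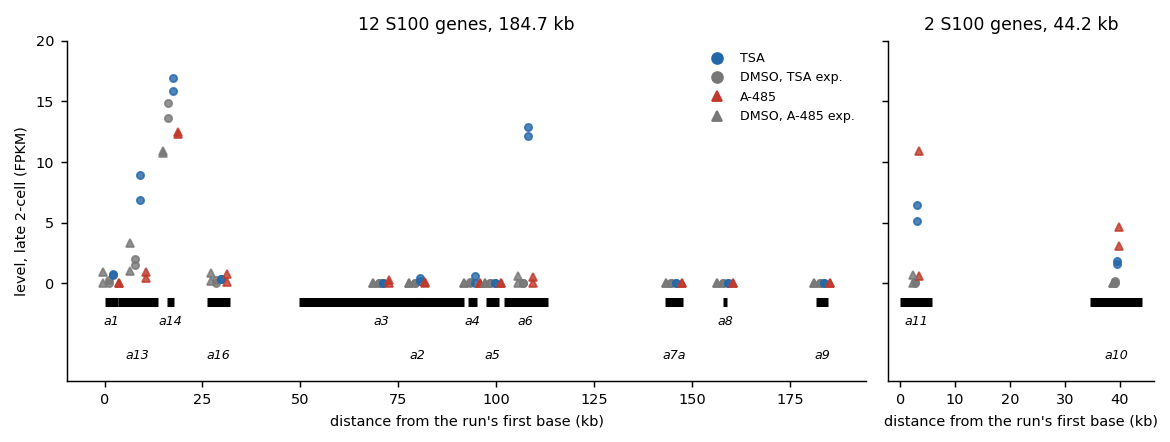
Level at the late 2-cell stage (FPKM) of every S100 gene in the 2 runs, placed by distance in kb from the run's first base, with black bars for the genes; circles are the TSA experiment, triangles the A-485 experiment, grey the DMSO controls. Genes with a level under TSA (S100a13, S100a6) and genes with no count (S100a8, S100a9) stand in the same run of 184.7 kb, and S100a14 is not called in either experiment.

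Over the 16 libraries, the protein-coding genes most like each called gene were ranked by Pearson's r of log2(FPKM + 0.1) among 14139 genes outside the family. These values share libraries and treatments and are descriptive. For S100a6 they included Hs3st3b1 (r = 0.93) and Pcdhga2 (0.93), each with its highest mean under TSA. S100a6 had at most 6 counts in any library outside TSA, so its r rests largely on the 2 TSA libraries. Sox17, an endoderm transcription factor, stood among the 3 genes most like S100a10 (r = 0.93), with means of 10.8 FPKM after A-485 and 0.09 FPKM in controls at the late 2-cell stage, and 1.62 FPKM against 0.10 FPKM at the early stage. The other 2 were 1700080O16Rik (r = 0.95) and Hist1h1t (0.93), a histone gene of the testis. S100a13 was most like Bcl10 (0.98), Usp25 (0.97) and Eva1a (0.97), which like it had higher means in late 2-cell than in zygote controls, and S100a11 was less closely matched, by genes that included Inpp4a (0.90) and Zfp458 (0.89).

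The proteins that S100 proteins bind were listed by their textbook roles, and edgeR's adjusted p is given for those called. The list was drawn up with earlier results of these data known, so its calls are a description. Of 21 partner genes, 17 were fitted in zygotes and 0 were called, with 3 at an unadjusted p under 0.05. At the early 2-cell stage 1 of 17 rose and 1 fell, where 0.402% of all genes were called higher and 7.9% lower. After A-485 at the late 2-cell stage 1 of 18 rose and 5 fell, where 10.5% of all genes were called higher and 16.8% lower. Under TSA 5 of 18 rose and 1 fell, where 13.8% and 13.9% of all genes were called, and with scaling to mitochondrially encoded genes 3 rose and 3 fell. The median log2 difference of the partners was 0.05, 0.09, 0.06 and 0.03 in these comparisons, close to 0 in each.

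Of the 6 membrane partners, Ahnak alone was called after A-485 at the 2-cell stages, and Ahnak, Anxa2, Anxa5 and Anxa6 were called under TSA. Anxa1 (adjusted p = 0.093 under TSA) and Anxa11 (log2 difference -1.85 ± 0.81 after A-485 at the late stage, adjusted p = 0.093, and -0.06 ± 0.33 under TSA, adjusted p = 0.92) were not called. Ahnak, which the S100a10 and annexin A2 complex carries to the plasma membrane, had 0.66 and 0.57 FPKM in the late controls and 17.5 and 16.2 FPKM after A-485, and 0.75 and 0.67 FPKM against 8.00 and 8.95 FPKM under TSA. The log2 differences were 4.37 ± 0.20 (SE, adjusted p = 2e-08) and 3.27 ± 0.18 (SE, adjusted p = 1.8e-07). Ahnak also rose after A-485 at the early 2-cell stage, from 1.33 and 0.89 FPKM to 3.66 and 4.25 FPKM (log2 difference 2.13 ± 0.15, adjusted p = 9.1e-07), where S100a10 was lower.

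Anxa2, the direct partner of S100a10, was at 11.2 and 12.6 FPKM in zygote controls and at 1.15 and 0.57 FPKM in early 2-cell controls, so its transcript was at its highest before S100a10 was measurable. Under TSA Anxa2 rose from 1.08 and 1.07 FPKM to 7.54 and 7.64 FPKM (log2 difference 2.7 ± 0.32, adjusted p = 5.7e-05). After A-485 at the late 2-cell stage it was at 7.40 and 1.96 FPKM against 1.73 and 2.23 FPKM in controls, with 1 treated library inside the control range, and it was not called (adjusted p = 0.14). Anxa5, a lipid-binding annexin, rose under TSA from 1.04 and 0.99 FPKM to 18.6 and 11.2 FPKM (log2 difference 3.81 ± 0.31, adjusted p = 2.7e-06). Anxa6, a binding partner of S100a11 and S100a6, rose from 2.06 and 1.85 FPKM to 5.46 and 5.09 FPKM (log2 difference 1.08 ± 0.24, adjusted p = 0.0042), a call lost when libraries were scaled to mitochondrially encoded genes.

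The 5 partners that fell after A-485 at the late 2-cell stage were Cacybp, Sugt1, Mdm2, Ppp5c and Fgf1, all from the intracellular class. Cacybp, the calcyclin-binding protein, had 29.3 and 36.2 FPKM in late controls and 2.7 and 3.66 FPKM after A-485 (log2 difference -3.32 ± 0.26, adjusted p = 9.3e-07), and under TSA it was at 19.1 and 15.3 FPKM against 26.8 and 28.8 FPKM, short of the fold needed for a call. Sugt1, a co-chaperone bound by S100a6, fell in both (log2 differences -1.49 ± 0.13, adjusted p = 2.3e-06, and -1.95 ± 0.08, adjusted p = 2e-08). S100a6 itself was at 0 or 0.51 FPKM in those A-485 libraries and at 12.9 and 12.2 FPKM under TSA. Mdm2, a ubiquitin ligase that S100 proteins bind, fell after A-485 by 1.14 ± 0.12 on the log2 scale (adjusted p = 1e-05), and the phosphatase Ppp5c fell by 1.56 ± 0.33 (adjusted p = 0.0027). Mdm2 was no longer called when libraries were scaled to total counts.

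Fgf1, the growth factor that S100a13 helps to export, differed in the same direction as S100a13 in each 2-cell comparison. It fell after A-485 at the early 2-cell stage from 5.22 and 4.29 FPKM to 0.93 and 0.41 FPKM (log2 difference -3.69 ± 0.28, adjusted p = 1.6e-06). At the late stage it fell from 7.90 and 10.2 FPKM to 1.39 and 2.19 FPKM (log2 difference -2.51 ± 0.29, adjusted p = 2.4e-05). Under TSA it rose from 6.99 and 10.5 FPKM to 21.3 and 24.3 FPKM (log2 difference 1.03 ± 0.17, adjusted p = 0.00062), close to the fold limit, and this call was lost in 3 of 11 alternative fits. Neither Il1a nor the S100a8 and S100a9 receptors Ager and Tlr4 reached 1 FPKM in any group mean. The other listed receptors were present in every group and not called in any comparison. Their group means were 16.2 to 50.1 FPKM for Bsg and 3.97 to 16.5 FPKM for Cd36.

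**Figure D4:**
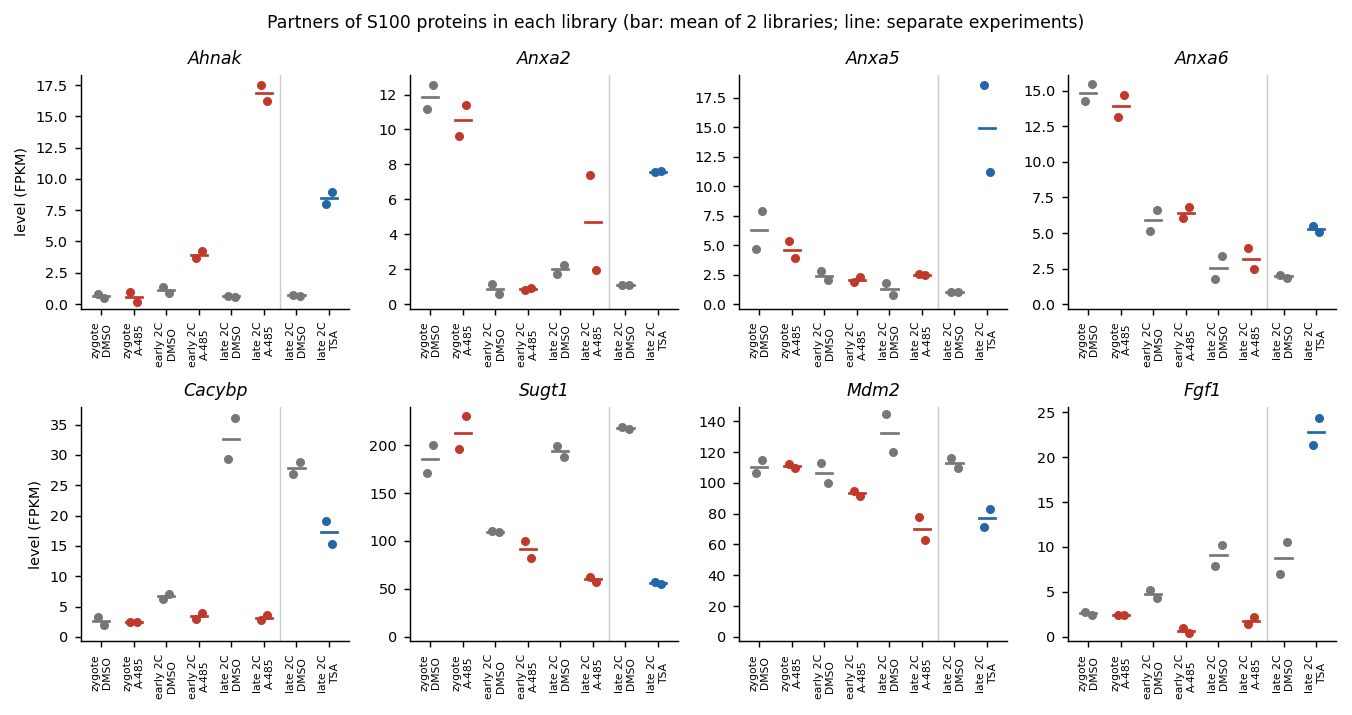
Level (FPKM) of 8 genes whose proteins bind S100 proteins, 1 point per library, a bar at the mean of 2 libraries, and a vertical line between the A-485 and TSA experiments; axes differ between genes. Ahnak is high after A-485 (17.5 and 16.2 FPKM) and under TSA (8.00 and 8.95 FPKM), whereas at the late 2-cell stage Cacybp and Sugt1 are lower in the A-485 libraries than in their controls.

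Calcium-binding EF-hand proteins outside the S100 family were compared as a wider class of 30 genes, also listed with earlier results known. In zygotes 26 were fitted and 0 called, with 1 at an unadjusted p under 0.05. At the early 2-cell stage 2 of 26 fell, where 0.402% of all genes were called higher and 7.9% lower. Calu fell by 1.08 ± 0.17 on the log2 scale (adjusted p = 0.00069). Rcn3 fell from 2.83 and 0.49 FPKM to 0 and 0 (adjusted p = 0.041), a call lost when either treated library was left out. After A-485 at the late 2-cell stage 3 of 28 rose and 6 fell (0 and 9 with scaling to mitochondrially encoded genes). Over all genes 10.5% were called higher and 16.8% lower there. The largest differences among the called genes were in Mcfd2 (-2.35 ± 0.27, adjusted p = 2.5e-05), Sdf4 (-2.17 ± 0.16, adjusted p = 4.7e-07) and Calm3 (-1.74 ± 0.23, adjusted p = 9.5e-05). Mcfd2 and Sdf4 act in the secretory pathway, and Calm3 encodes calmodulin. Under TSA 6 of 28 rose and 5 fell (11 and 5 with scaling to total counts), where 13.8% of all genes were called higher and 13.9% lower. Calb2, or calretinin, rose from 0.30 and 0.51 FPKM to 14.7 and 14.3 FPKM (log2 difference 4.78 ± 0.33, adjusted p = 7.5e-07) and Efhd2 from 0.32 and 0.29 FPKM to 6.61 and 6.93 FPKM (4.10 ± 0.30, adjusted p = 1.3e-06), levels like those of S100a6 and S100a13, while Ocm, a parvalbumin, fell by 2.72 ± 0.63 on the log2 scale (adjusted p = 0.0049), a call lost without the first control library and with all 16 libraries in 1 fit.

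Open chromatin was measured by ATAC-seq with A-485 or DMSO at the late 1-cell stage and at the early 2-cell stage, and the deposited lists hold peaks called over both replicates, so they carry no replicate error. A promoter peak was a peak within 1 kb of any annotated start. The late 1-cell DMSO list had a promoter peak at 2 of the 9 genes, S100a6 and S100a10, the late 1-cell A-485 list at S100a6 only, the early 2-cell DMSO list at 0, and the early 2-cell A-485 list at S100a6. For comparison 26.2%, 24.7%, 31.8% and 41.0% of protein-coding genes had such a peak in these lists.

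The S100a6 peak covered chr3:90612961-90613490 in late 1-cell controls, from 79 to 608 bases past the gene's start and so inside the gene, with a fold enrichment of 6.03. In late 1-cell A-485 embryos it covered chr3:90612961-90613378 (fold 5.75) and in early 2-cell A-485 embryos chr3:90612951-90613701 (fold 8.46). In early 2-cell controls no peak was listed and the nearest lay 51037 bases from the S100a6 start. The S100a10 peak, chr3:93554443-93554956 (fold 6.37), ended 124 bases before the gene and was listed in late 1-cell controls only. S100a11 and S100a13 had no promoter peak in any list, and all genes without one were at least 4267 bases from the nearest peak.

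Among the partners, 8, 8, 12 and 13 of 21 had a promoter peak in the same order of lists. Anxa5 showed the pattern of S100a6, with a peak in both late 1-cell lists (fold 7.41 and 6.42) and in early 2-cell A-485 embryos (fold 13.3), but not in early 2-cell controls. The lists differ in length, with 27693 peaks in early 2-cell controls and 13712 after A-485, and whether a peak is listed depends on the depth and threshold of each list. ATAC-seq under TSA was not analysed here.

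Markers of other cell types moved with the late 2-cell differences, and their part in the S100 values was not tested. Erythroid markers summed to 45.9 and 47.2 FPKM under TSA against 1.08 to 1.60 FPKM in controls, from Hba-a1 and Hba-a2, with Hbb-bs and Hbb-bt at 0 and 3 of 8 genes above 0.5 FPKM. After A-485 at the late 2-cell stage the erythroid sum was lower than in controls, between 0.57 and 2.31 FPKM against 3.76 to 4.76 FPKM, with 1 of 8 genes above 0.5 FPKM. Fibroblast markers summed to between 18.8 and 21.4 FPKM under TSA and between 19.9 and 26.0 FPKM after A-485, against 0.73 to 3.07 FPKM in the late controls, with Dcn and Lum at 0 in both treated groups and 5 and 2 of 10 genes above 0.5 FPKM. Pdgfra alone gave 13.9 and 15.9 FPKM of the A-485 sums. Myeloid markers summed to between 8.09 and 9.09 FPKM under TSA against 2.29 to 3.03 FPKM, 4 of 11 genes being above 0.5 FPKM and Elane, Fcer1g, Tyrobp and Ly6g at 0, beside S100a8 and S100a9 at 0. After A-485 at the late 2-cell stage they summed to between 4.39 and 6.75 FPKM against 1.70 to 4.10 FPKM, with 4 of 11 genes above 0.5 FPKM and Ptprc, Tyrobp and Ly6g at 0.

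The other lists were summed in the same way. Keratinocyte markers summed to between 7.62 and 8.07 FPKM under TSA against 5.60 to 5.82 FPKM in controls, with 4 of 10 genes above 0.5 FPKM and Krt14 and Lor at 0. Cumulus cell markers, which could enter with the oocytes, summed to between 4.96 and 5.19 FPKM under TSA and between 5.16 and 6.78 FPKM after A-485, against 1.61 to 2.23 FPKM in late controls, with 4 and 5 of 12 genes above 0.5 FPKM and Amh and Fshr at 0 after A-485. Sperm markers summed to between 5.04 and 6.45 FPKM under TSA against 1.99 to 3.21 FPKM, with 3 of 8 genes above 0.5 FPKM and Prm1 and Smcp at 0. After A-485 at the late 2-cell stage keratinocyte markers summed to between 6.93 and 10.7 FPKM against 5.92 to 7.71 FPKM. Sperm markers summed to between 2.55 and 3.09 FPKM there, against 1.25 to 2.37 FPKM. The sum of oocyte and embryo markers was also higher after A-485 at the late 2-cell stage, at 1535 and 1565 FPKM against 904.9 and 960.8 FPKM. Most of that difference came from Oosp1 (780.2 and 794.1 against 450.5 and 464.8 FPKM) and Bmp15 (407.5 and 415.2 against 146.7 and 160.5 FPKM). Zp3 (12.2 and 10.3 against 15.5 and 20.4 FPKM) and Zfp352 (19.3 and 13.5 against 60.2 and 60.0 FPKM) were lower. The sum was higher under TSA too, between 962.7 and 1019 FPKM against 728.2 to 740.0 FPKM, although Zp3 was lower (7.93 and 7.62 against 13.9 and 11.8 FPKM). In bulk samples, fewer cells of a type and less RNA per cell cannot be told apart.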

How the data were processed

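Total RNA was sequenced with a stranded SMART-Seq kit. Per the study's methods the authors trimmed reads with Trimmomatic 0.39, aligned them with STAR 2.7.8a to GRCm38 and quantified genes with RSEM 1.3.1, and deposited expected counts, FPKM and the posterior SD of each count, a signal of how far reads were shared between similar genes. The annotation used and whether counting used the strand are not given in the sources used here. The deposited ATAC-seq peaks carry a fold enrichment ratio and a −log10 q value from the authors' peak caller, called over both replicates.

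Expected counts were rounded and fitted per comparison with edgeR 4.0.16 (quasi-likelihood test, TMM, at least 10 counts over 4 libraries, Benjamini-Hochberg adjustment over all fitted genes) in R 4.3.3. DESeq2 1.42.0, other scalings, no count filter, all 16 libraries in 1 fit, a replicate block and leaving out each library were alternatives. Only the main edgeR fit was tried on simulated counts, drawn for the TSA comparison, and the outcome is not reported here. Levels are RSEM's FPKM. Of 55385 gene IDs 55144 matched GENCODE M21, from which gene coordinates were taken. Replicate libraries differed by more than sampling noise (chi-square per degree of freedom 8.99 to 18.0). Nothing in the labels says that they came from separate fertilisations, so p-values measure the spread between libraries, which may be technical. Intervals and limits cover counting error only. Peaks fit GRCm38, as 28.9% of early 2-cell control peaks lay within 1 kb of a start and 10.7% after a shift of 1000000 bases.

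The members and the gene lists were chosen with earlier results of these data known. Named genes were every member, other S100 genes with a mean of at least 1 FPKM in any group, called partners, the 3 called EF-hand genes with the largest log2 difference per comparison, the 3 protein-coding genes outside the family most like each called member (Pearson's r), and called neighbours on chromosome 3, of which there were 0. Some genes that this rule names are not reported here.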

Additional observations from a re-analysis of the deposited data

Results flagged for a closer look

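S100a10 differed from its controls in opposite directions, with the libraries of each comparison not overlapping. The mean difference, treated minus DMSO, was -1.14 FPKM after A-485 at the early 2-cell stage, 3.88 FPKM after A-485 at the late 2-cell stage and 1.57 FPKM under TSA. S100a13 was likewise on opposite sides at the late 2-cell stage, with a difference of 6.13 FPKM under TSA and -1.48 FPKM after A-485. These differences between comparisons were not tested.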

How the results depend on the processing

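Under the alternatives 188 counts of calls or promoter peaks stayed within 1.5 times the values given and 16 did not, and of the log2 differences of S100 genes 149 kept direction and call, 9 reversed, 7 lost the call and 4 gained it. The cause of the other changes was not tested. In zygotes the calls over all genes went from 13 to 28 with scaling to mitochondrially encoded genes, 39 without the count filter, 26 with all 16 libraries in 1 fit, 39 with the replicate block, and 21 to 56 when a library was left out. S100 genes called after A-485 at the late 2-cell stage went from 1 to 2, by S100a11, without the count filter, with all 16 libraries and without the first treated or first control library (range 1 to 2). Under TSA they went from 4 to 2 with all 16 libraries, as S100a10 and S100a13 were lost. EF-hand genes called at the early 2-cell stage were 1 to 2 when a library was left out. Of the S100 log2 differences, those that reversed belonged to genes not called in that comparison. S100a11 in zygotes had log2 differences of 0.13 with mitochondrial scaling, 0.045 with the replicate block and -0.73 to 0.92 when a library was left out, and at the early 2-cell stage -0.90 to 0.75. S100a16 had -1.25 to 0.74 at the early stage, and at the late stage 0.11 with total counts, 0.24 with the replicate block and -0.86 to 0.37 when a library was left out. Mitochondrial scaling moved the median log2 difference of expressed genes from 0.02 to -0.96 after A-485 at the late 2-cell stage, from -0.03 to -0.21 under TSA and from 0.01 to 0.28 in zygotes, and total counts moved the late medians to 0.21 and 0.32.

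The replicate numbers give no pairing, since only 2 pairs exist per comparison and deviations of same-numbered libraries correlated at 0.08, -0.03, -0.03 and 0.11. Of calls on S100 genes the replicate block ended 1, S100a10 under TSA (log2 difference 3.17), a call also lost with DESeq2, without either treated library and without the first control. Depth limits these values: S100a10 rested on 18 and 17 counts under TSA. The 5 neighbouring genes could not be fitted, and alternatives were not run for them.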
